A study of Bos taurus with 29 samples.

Results

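The 44 transcripts described here were chosen by their levels in cows with low progesterone (P4). Each had a mean of at least 10 TPM (read counts scaled for transcript length and to an equal total in every sample) in endometrial stroma (ST), and that mean was at least 5 times the mean in both luminal epithelium (LE) and glandular epithelium (GE). They were 44 of the 37925 transcripts quantified in each sample, and 44 of the 8034 whose ST mean reached 10 TPM in low P4 cows. The distance between ST and the epithelia in low P4 cows selected them, so it is given as a description with no test.

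RNA was sequenced from LE, GE and ST captured by laser from frozen endometrial biopsies of 13 Holstein cows with a healthy uterus. Sampling was 44 days after calving by the study's methods and 45 days by the sample labels. The 9 low P4 cows were below a blood P4 concentration of 1 ng/mL and the 4 high P4 cows above it. Low P4 cows gave 9 ST, 7 GE and 6 LE samples, and high P4 cows gave 3 ST, 3 GE and 1 LE sample. The cows are numbered from 1 to 13 for naming only, and many gave more than 1 cell type. Cows 2, 4, 5 and 9 had high P4. P4 was the animals' own and followed their ovarian state, so it came with whatever else differed between cows at those stages. By the study's methods the low P4 cows were a mix of cows still in anoestrus and cyclic cows near oestrus. The captured ST may hold fibroblasts, immune cells and endothelial cells. The paper states that its choice of capture areas avoided blood vessel cells and that taking healthy cows kept immune cells few. The RNA of every sample was amplified by PCR before sequencing. A lower level in such samples can come from fewer cells of a type or from less RNA per cell, which cannot be told apart. Totals of the samples were between 24860445 and 33209181 estimated counts, with a median of 28494910.

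Endometrial stroma is the connective tissue beneath the luminal epithelium and around the glands. Its fibroblasts lay down collagen and other matrix, carry receptors for P4 and oestradiol, and send growth factors to the epithelium, while vessels and resident immune cells run through it. The files name transcripts by their Ensembl identifier, and neither they nor the reference used here pair these identifiers with genes. No function is therefore given for any member, and the tissue labels could not be compared with marker genes.

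The labels were compared instead with 383 transcripts found by the mirrored rule, at least 10 TPM in both epithelia and at least 5 times the ST mean in low P4 cows. That rule fixes a low ST level in low P4 cows on average, so only the high P4 samples are free of it, and the low P4 values show how the samples differ among themselves. In ST of low P4 cows the median level of these epithelial transcripts was between 1.27% and 11.1% of their epithelial mean, with the highest value in cow 6. In high P4 cows, which the rule did not use, it was 4.80% in ST of cow 5, 3.49% in ST of cow 9 and 22.6% in ST of cow 4. The epithelial samples lay between 31.8% and 129%, and the lowest were GE and LE of cow 13. ST of cow 4 and of cow 6 thus held more epithelial transcript than the other ST samples, and the 3 high P4 ST samples lay below the 4 high P4 epithelial samples, which had from 79.8% to 111%.

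The members covered a wide range of levels. Their ST means in low P4 cows lay between 10.1 and 1002 TPM with a median of 36.7 TPM, and 15 members had 100 TPM or more. In the same cows the GE means had a median of 4.49 TPM, from 0.158 to 136.9, and the LE means a median of 2.56 TPM, from 0.0158 to 72.9. Between 2 and 11 of the 44 members were listed at 0 in a GE sample, between 5 and 15 in an LE sample and between 0 and 6 in an ST sample. The ST mean was a median of 6.33 times the higher epithelial mean, and 20 members lay between 5 and 6 times while 11 reached 10 times. GE was the higher epithelium in 36 members and LE in 8. The mean ST count behind these values had a median of 1085 estimated counts, from 40.7 to 32206.5.

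**Figure D1:**
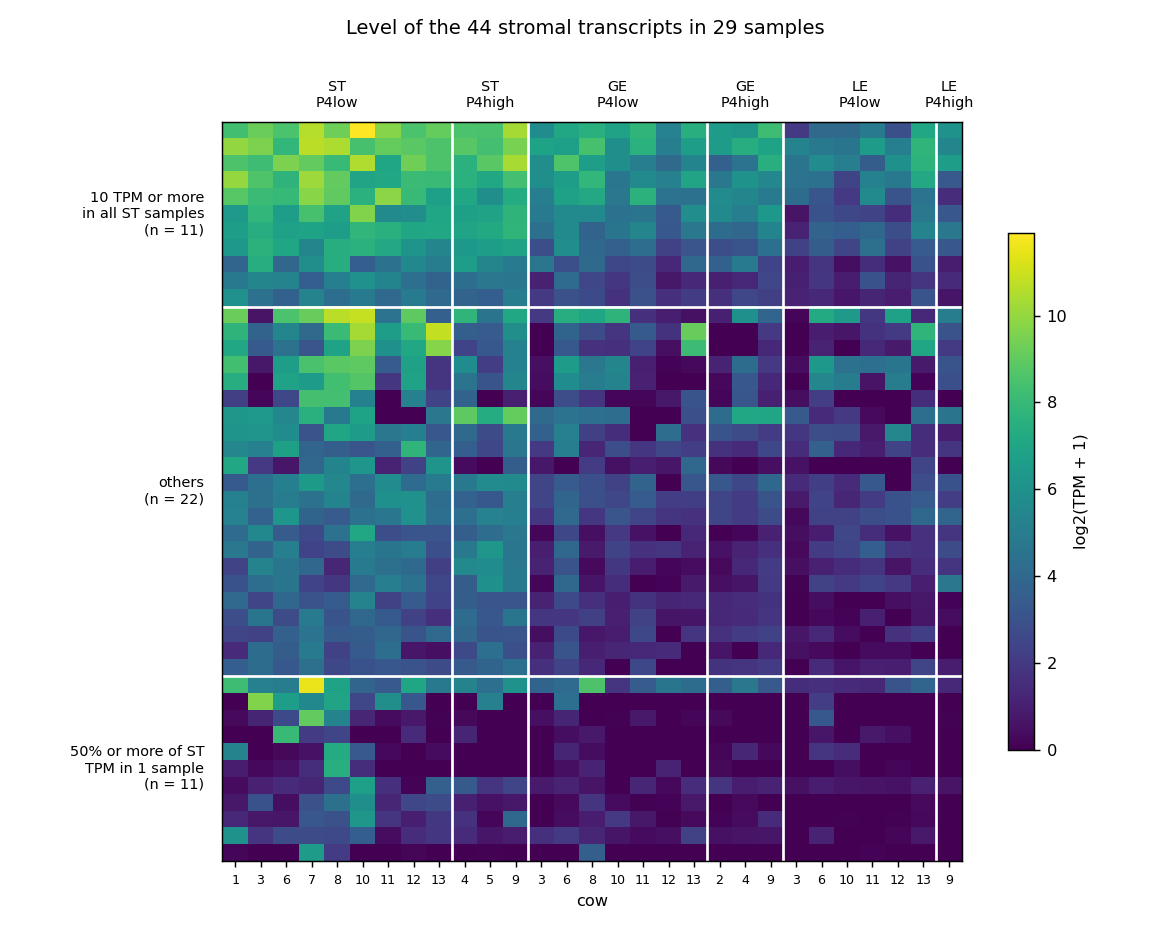
Level of each of the 44 transcripts (rows) in each of the 29 samples (columns, numbered by cow) as log2(TPM + 1), with rows grouped by how they spread over the 12 ST samples. The upper 11 rows reach 10 TPM in every ST sample, while in the lower 11 rows a single ST sample holds at least 50% of the TPM.

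The pair of members with the highest ST mean were ENSBTAT00000083508.1, of 730 bases, and ENSBTAT00000009469.3, of 1546 bases. In ST of low P4 cows ENSBTAT00000083508.1 had from 312 to 3843 TPM with a median of 598, and in high P4 cows 371, 354 and 1274 TPM in cows 4, 5 and 9. GE of low P4 cows had from 38.4 to 221 TPM with a median of 137, and LE at most 139 with a median of 16.3. Every ST sample of this transcript lay above every epithelial sample of the same P4 group. ENSBTAT00000009469.3 had from 236 to 1633 TPM in ST of low P4 cows, with a median of 541, and 457, 322 and 735 TPM in cows 4, 5 and 9. Its GE samples in low P4 cows had from 33.5 to 349 TPM, so its lowest ST samples overlapped its highest GE sample.

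At the edges of the rule the values ran on without a gap. ENSBTAT00000044776.3 had an ST mean of 10.1 TPM and was a member, whereas ENSBTAT00000045324.4 had 9.36 TPM at 7.92 times the higher epithelium and was not. ENSBTAT00000063968.2 had 5.01 times the higher epithelial mean and was a member, whereas ENSBTAT00000068853.1 had 4.97 times and was not.

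Few members kept ST and epithelium fully apart in the low P4 cows. The lowest ST sample lay above the highest GE and LE sample for 6 members, and 0.273% of all tested transcripts did so. It lay above the highest GE sample for 6 members (0.597% of all) and above the highest LE sample for 18 members (2.53% of all). These samples chose the members, and nothing is read from the counts.

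Levels across ST samples varied more among the members than among stromal transcripts in general. The coefficient of variation (CV, the SD divided by the mean) over the 12 ST samples had a median of 1.07 in the members, from 0.302 to 3.35, and of 0.335 in the 8034 transcripts with 10 TPM or more in ST. A single ST sample held a median of 29.6% of a member's TPM summed over the 12, against 13.4% in the 8034. In 12 members 1 ST sample was under 1 TPM while another had 100 TPM or more, which was 27.3% of the members and 0.958% of the 8034. Of the 12 ST samples 9 were among those that chose the members, so these values are a description with no test. ST of cow 10 was the highest for 13 members and ST of cow 7 for 11. High P4 cows held the highest ST level for 4 members, cow 5 for 3 and cow 9 for 1. The rule used means of low P4 cows, which favours transcripts that are highest in them. The same counts were not made for the 8034, so nothing is read from them.

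**Figure D2:**
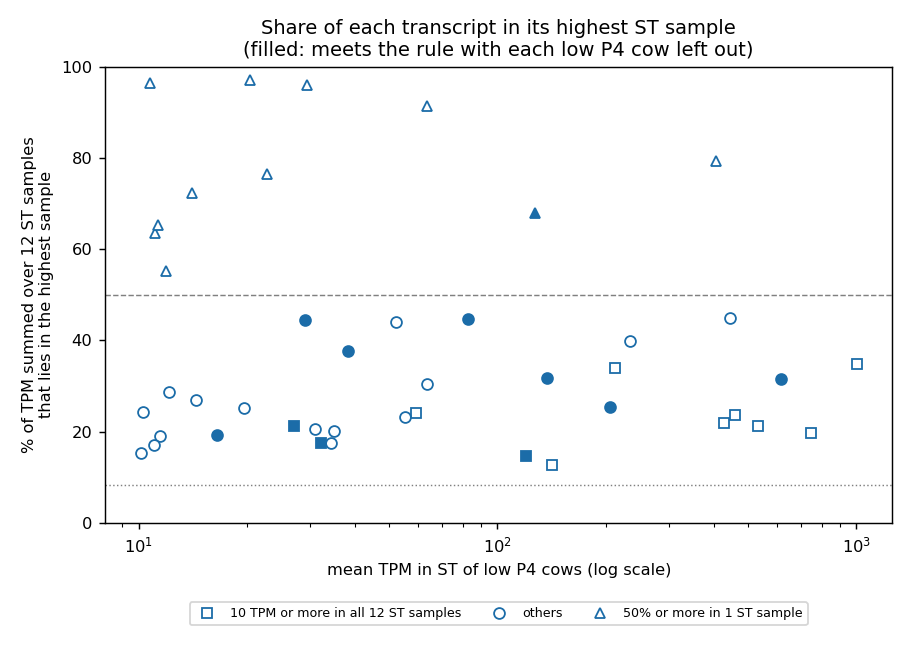
Share of each transcript's TPM, summed over 12 ST samples, that lies in its highest ST sample (percent) against its mean TPM in ST of low P4 cows (log scale). The dashed line marks 50%, which 11 transcripts exceed, the dotted line marks the share in equal samples, and filled symbols mark the 11 transcripts that meet the rule with each low P4 cow left out in turn.

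Membership depended on single cows. With each low P4 cow left out in turn, 11 of the 44 met the rule every time and 33 failed at least once. Without cow 10 the rule found 32 transcripts, of which 27 were among the 44, and without cow 7 it found 41, of which 32 were among the 44. Without cow 6 it found 80 and without cow 13 it found 70, of which 40 of the 44 were part in each case. With the median TPM in place of the mean it found 93, of which 20 were among the 44.

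The members fell into 3 sets that were formed after their values were seen, from all 12 ST samples, and carry no test. In 11 members every ST sample had 10 TPM or more, in 11 others 1 ST sample held at least 50% of the TPM, and 22 lay between. The set present in every ST sample was the most abundant, with a median ST mean of 212 TPM in low P4 cows and a median CV of 0.743. In high P4 cows its ST means had a median of 145 TPM. The set with at least 50% in 1 sample had a median of 20.4 TPM in low P4 cows and 0.746 TPM in high P4 cows, and its median CV was 2.65. Of the 8034 transcripts 0.934% had such a share in 1 sample, against 25% of the members.

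The steadiest members were ENSBTAT00000039787.4, of 4227 bases, and ENSBTAT00000044776.3, of 1586 bases. ENSBTAT00000039787.4 had from 98.5 to 225 TPM in ST of low P4 cows, with a median of 126, and 125, 152 and 224 TPM in the high P4 cows 4, 5 and 9. In GE it had from 8.60 to 51.3 TPM in low P4 cows and 17.4, 14.0 and 40.6 TPM in the high P4 cows 2, 4 and 9. All its ST samples lay above all its GE samples, and its CV over ST was 0.302. ENSBTAT00000044776.3, near the lower edge of the rule, had from 5.05 to 20.3 TPM in ST of low P4 cows with a median of 8.53, and from 0 to 4.96 TPM in GE. Its ST samples also lay above its GE samples, and its CV was 0.477.

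The least steady members had their level in 1 cow. ENSBTAT00000069942.1, of 561 bases, had 178 TPM in ST of cow 8 from 1089 estimated counts, and at most 1.99 TPM in any other ST sample. ENSBTAT00000032674.3, of 1854 bases, had 93.6 TPM in ST of cow 7 from 3685 estimated counts, 3.22 TPM in ST of cow 8 and 11.2 TPM in GE of cow 8. ENSBTAT00000084627.1, of 414 bases, had 256 TPM in ST of cow 6 from 816 estimated counts. The next highest ST sample of that transcript was cow 8 with 4.60 TPM. These 3 transcripts were at 0.759 TPM or less, 1.24 TPM or less and, apart from GE of cow 8, 0.0738 TPM or less in the epithelia for ENSBTAT00000084627.1, ENSBTAT00000069942.1 and ENSBTAT00000032674.3. In the high P4 ST samples none of them passed 1.35 TPM. ENSBTAT00000084627.1 and ENSBTAT00000069942.1 also had the largest ratios of all members, 98.8 and 49.4 times the higher epithelium, and each ratio came from 1 cow. The 11 members of this kind had their level in cows 7 and 10 (3 each), cow 8 (2), and cows 1, 3 and 6 (1 each).

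For some sets of members the level went with the cow of origin in several cell types, which was not particular to the members. Over the 7 low P4 cows with ST and GE, the median correlation between the pair of cell types was 0.49 in the members and 0.62 in the 8034. Over the 29 samples, 6 of the 946 pairs of members had a Pearson correlation of log2(TPM + 1) of at least 0.95, and the median over pairs was 0.51. This correlation includes the step between ST and epithelium that chose the members. Over the 12 ST samples alone the median was 0.12, and 367 pairs were below 0. These are descriptions over samples that share cows, and the pairs named next were chosen after their values were seen.

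ENSBTAT00000083559.1, ENSBTAT00000078996.1 and ENSBTAT00000076973.1 varied together, with correlations of 0.98, 0.95 and 0.95 over 29 samples. ENSBTAT00000083559.1 had 606, 367, 564, 1609, 1875 and 498 TPM in ST of the low P4 cows 1, 6, 7, 8, 10 and 12. The same transcript had 0.548, 22.4 and 11.7 TPM in ST of cows 3, 11 and 13. In high P4 cows it had 223, 22.7 and 135 TPM in ST of cows 4, 5 and 9. In GE it had 170, 129 and 215 TPM in cows 6, 8 and 10 and at most 2.99 TPM in the low P4 cows 3, 11, 12 and 13. The epithelial samples with a high level came from cows whose ST was also high, although GE of cow 12 had 1.01 TPM beside 498 TPM in its ST and 112 TPM in its LE. ENSBTAT00000078996.1 and ENSBTAT00000076973.1 had the same 3 lowest ST samples among low P4 cows, at most 9.57 and 2.65 TPM.

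ENSBTAT00000081425.1 and ENSBTAT00000005903.3 had a correlation of 0.99 over 29 samples and were highest in cow 13 in all 3 cell types. ENSBTAT00000081425.1 had 1828 TPM in ST, 564 TPM in GE and 224 TPM in LE of cow 13. Its next highest values were 1245 TPM in ST of cow 10, 13.4 TPM in GE of cow 6 and 7.33 TPM in LE of cow 9. ENSBTAT00000005903.3 had 856, 287 and 128 TPM in ST, GE and LE of cow 13. LE and GE of cow 13 were also the epithelial samples with the lowest level of the 383 epithelial transcripts. The part of captured ST in the epithelial values of cow 13 was not tested. ENSBTAT00000063508.2 and ENSBTAT00000077035.1 had a correlation of 0.99 too, and both were above 10 TPM in every ST sample.

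**Figure D3:**
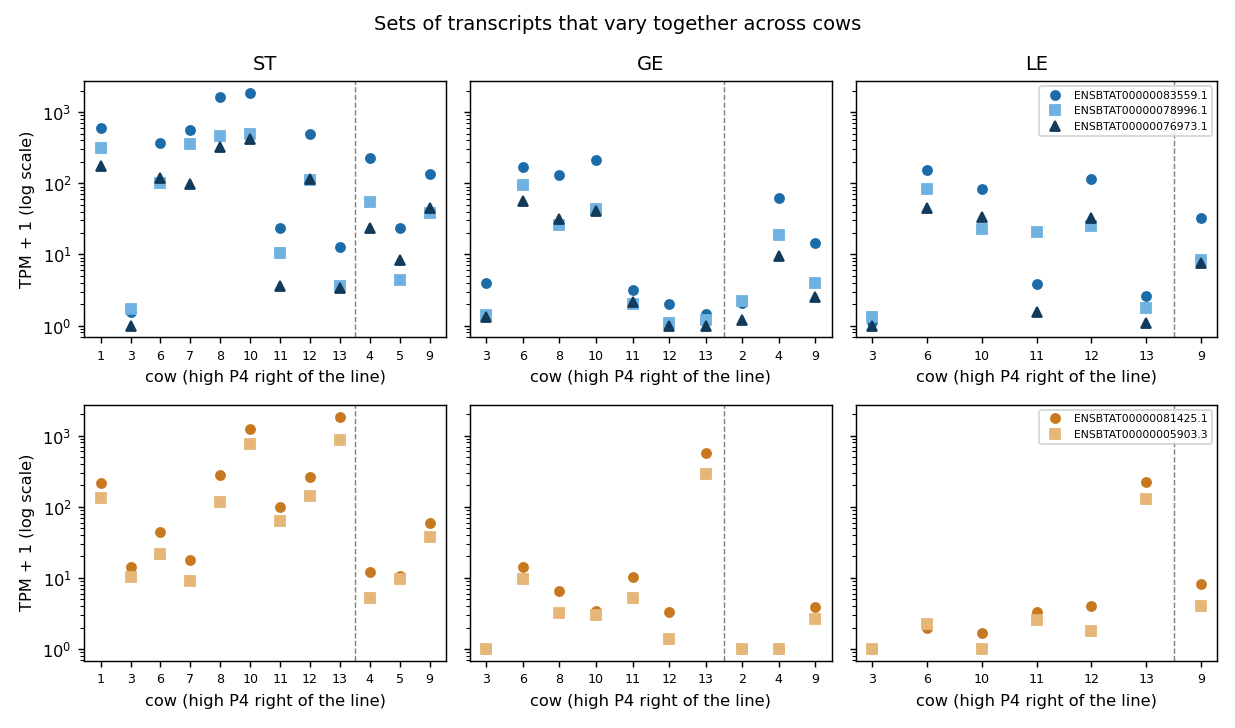
TPM + 1 (log scale) of 3 transcripts that vary together (upper row) and of 2 others (lower row) in ST, GE and LE, with samples ordered by cow and high P4 cows to the right of the dashed line. In ST the upper set is lowest in cows 3, 11 and 13 among low P4 cows and in cow 5 among high P4 cows. The lower set peaks in cow 13 in all 3 cell types.

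Within a cow, most members were higher in ST than in its own epithelium. Cows that gave both ST and GE had 37 to 42 of the 44 members higher in ST, and those that gave ST and LE had 38 to 42. The median log2 ratio of TPM + 1 was between 1.02 and 3.22 for ST over GE and between 1.32 and 3.87 for ST over LE. Of the 8034 transcripts, 37.1% to 69.4% were higher in ST than in GE of the same cow and 47.2% to 74.7% higher than in LE, and their median log2 ratios lay between -0.17 and 0.37 for GE and between -0.05 and 0.51 for LE. Apart from cows 4 and 9, these cows are the low P4 cows that chose the members, so their values are a description. The smallest ST to GE ratio was in cow 6, where 41 members were higher in ST but 3 were at least 5 times higher. In GE of cow 6 the median member had 11.5 TPM, against 0.694 to 3.46 TPM in GE of the other low P4 cows. The epithelial transcripts in that GE sample were at 79.9% of their epithelial mean, and the part of captured ST in it was not tested. Over the 7 low P4 cows with ST and GE, the levels in the pair of cell types had a median correlation of 0.49 in the members and 0.62 in the 8034, and it reached 0.8 in 9.09% and 22.0%.

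**Figure D4:**
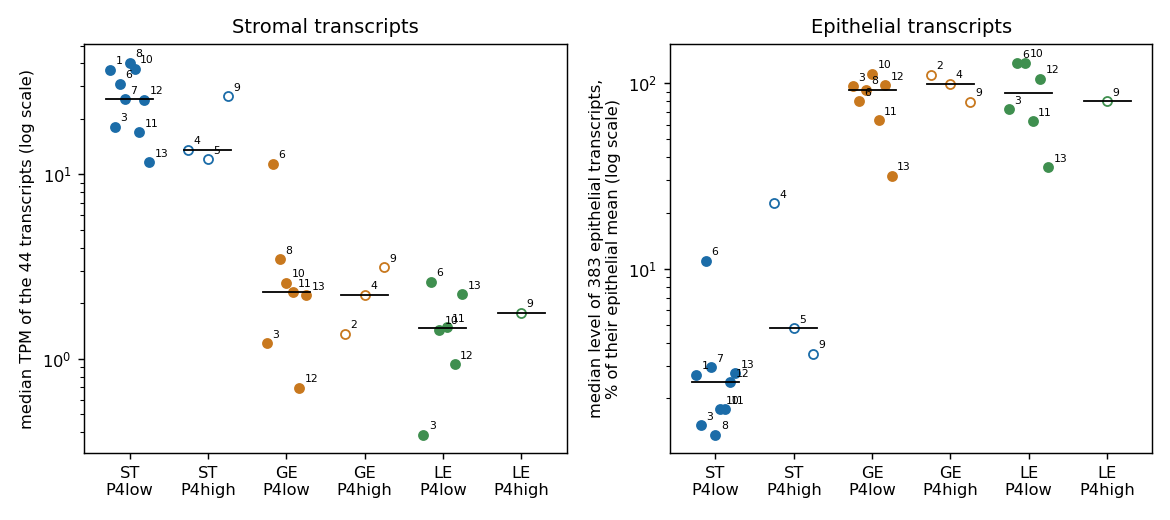
Median TPM of the 44 transcripts (left) and median level of 383 epithelial transcripts as percent of their epithelial mean (right), both on log scales, for each sample (points, with cow numbers) and group (bars are medians over samples, open points are high P4 cows). Every ST sample lies at 11.7 TPM or more for the stromal transcripts, and GE of cow 6 is the highest epithelial sample at 11.5 TPM.

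The high P4 samples were not used to choose the members and give a check on other cows. The median level of the members was 13.6, 12.1 and 26.5 TPM in ST of cows 4, 5 and 9, between 1.36 and 3.14 TPM in GE and 1.77 TPM in the LE sample. No high P4 ST sample overlapped the high P4 epithelial samples by this measure. The ST mean was above both epithelial means in 41 of the 44 members, at least 5 times above both in 17, and at least 10 TPM in 31. Of the 8034, 44.1% were above both epithelial means, 2.63% at least 5 times above both and 95.5% at 10 TPM or more. The whole rule was met in 13 members, or 29.5%, against 2.40% of the 8034. The median ratio of ST to the higher epithelium was 1.90 on the log2(TPM + 1) scale, with an SD of 0.56 over the 3 ST samples.

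**Figure D5:**
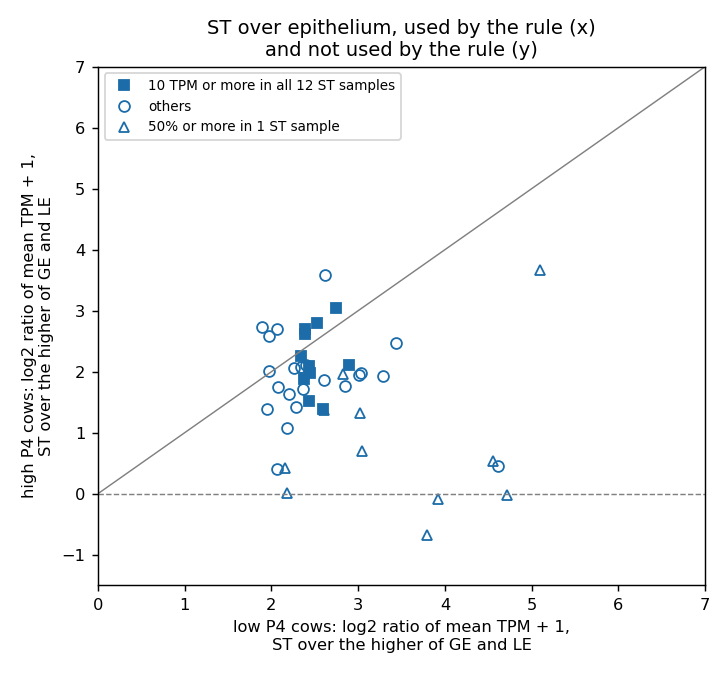
Ratio of the ST mean to the higher of the GE and LE means, as log2 of mean TPM + 1, in high P4 cows (vertical axis) against low P4 cows (horizontal axis) for each of the 44 transcripts. The dashed line marks equal levels in high P4 cows, which 41 of the 44 transcripts exceed, and the symbols mark sets formed with the high P4 ST samples included, so their places on the vertical axis follow in part from how they were formed.

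The 3 ST and 3 GE samples of high P4 cows were compared by the quasi-likelihood test of edgeR. The spread in this test was estimated from all 29 samples, so the low P4 samples that chose the members also entered its p-values. The fit took all 27480 transcripts with 3 or more samples at a count of 10 or more, of which 43 were members. ENSBTAT00000084627.1 did not pass and was not tested. Every ST sample was above every GE sample in 28 members, against 16.7% of all transcripts, and above the LE sample too in 27, against 14.9% of all and 21.9% of those with 10 TPM or more in ST. At a p of 0.05 or less after Benjamini-Hochberg adjustment, 6 members were higher in ST than in GE, against 2.07% of all transcripts and 4.63% of those with 10 TPM or more in ST, and 0 were lower, against 3.2% of all. At an unadjusted p under 0.05 it was 16 members, against 10.3% of all. The fitted log2 fold change had a median of 2.32 in the members and of -0.03 in all transcripts, and 40 of the 43 were above 0.

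The called members with the largest change were ENSBTAT00000019534.4 and ENSBTAT00000063968.2. ENSBTAT00000019534.4 had 11.1, 18.1 and 26.0 TPM in ST of cows 4, 5 and 9 and 0, 0.107 and 1.11 TPM in GE of cows 2, 4 and 9. Its ST samples all lay above its GE samples, with a log2 fold change of 5.54 (SE 1.66, adjusted p 0.0491 by edgeR). Its adjusted p lay between 0.00100 and 0.173 over 20 alternatives and passed in 8 of them, while its log2 fold change lay between 3.80 and 7.90. ENSBTAT00000063968.2 had 27.4, 77.4 and 24.6 TPM in ST and 0.511, 1.28 and 2.05 TPM in GE, again with no overlap, and a log2 fold change of 5.08 (SE 1.14, adjusted p 0.0126 by edgeR). The steady ENSBTAT00000039787.4 was also called, at a log2 fold change of 2.85 (SE 0.79, adjusted p 0.0344 by edgeR), while ENSBTAT00000044776.3 was not, at 2.40 (SE 1.47, adjusted p 0.341 by edgeR).

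The count of calls depended on the model and on every high P4 cow that gave ST or GE. Leaving out cow 2, 4, 5 or 9 left 0 members called in each case. Over all transcripts the calls in either direction fell in the same fits, from 1447 to 319, 545, 116 and 55. The log2 fold change of ENSBTAT00000039787.4 lay between 2.63 and 3.12 in these fits, and that of ENSBTAT00000063968.2 between 4.38 and 5.83. With the cow as a block in edgeR 0 members were called, against 0.244% of all transcripts, and with the cow as a block in limma voom 15 were called, against 6.32%. At an unadjusted p under 0.05 the block fit in edgeR had 22 members higher in ST than in GE, against 8.33% of all. DESeq2 called 12 higher in ST, against 6.49% of all, and 1 lower, against 7.62%. limma on log2(TPM + 1) called 14, against 5.06%. ST of cow 4 is the sample whose epithelial transcripts stood at 22.6% of their epithelial mean, and in that cow 40 of the 44 members were higher in ST than in GE, 21 of them at least 5 times. In cow 9 it was 38 and 26, and the median log2 ratio was 1.75 in cow 4 and 2.42 in cow 9. Of the 8034 transcripts 52.2% were higher in ST than in GE in cow 4 and 47.6% in cow 9, with median log2 ratios of 0.04 and -0.03.

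The members without a higher ST level in these cows were at or near 0 in them. ENSBTAT00000031540.5 had 157 TPM in ST of cow 8 and 38.6 TPM in ST of cow 1, and was at 0 in the 3 ST samples of high P4 cows. Its GE samples in high P4 cows had 0.174, 1.43 and 0.181 TPM, and this is the member that DESeq2 called lower in ST. ENSBTAT00000069942.1 was at 0 in the 3 ST samples and had 0.202 TPM in GE of cow 2. ENSBTAT00000011164.4, named after its values were seen, had 0.181 TPM in ST of cow 4 and 0.244 TPM in GE of cow 2 beside 523 TPM in ST of the low P4 cow 7.

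Against LE the high P4 cows offer 1 sample, which the fit assumed to vary like the other groups. With edgeR 0 members were called higher in ST than in LE, against 0.368% of all transcripts, and 11 were higher at an unadjusted p under 0.05, against 7.46%. DESeq2 called 10, against 5.09% of all, and limma on log2(TPM + 1) called 8, against 2.87%. With the cow as a block edgeR called 1, ENSBTAT00000014883.6 (0.386% of all), and limma voom 1, ENSBTAT00000063508.2 (1.11% of all). Both are named after their values were seen. ENSBTAT00000014883.6 had 137, 60.8 and 161 TPM in ST of high P4 cows and 1.89 TPM in LE of cow 9, and ENSBTAT00000063508.2 had 81.7, 96.6 and 116 TPM in ST and 8.49 TPM in LE.

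The question of the study was how P4 is associated with expression in each cell type. For these transcripts the low P4 samples of every comparison also chose the members, which favours high ST levels in low P4 cows, so the counts are given as a description and nothing is read from them. Summed over the members, ST held from 3625 to 13019 TPM in low P4 cows with a median of 5029, and 2927, 2430 and 5751 TPM in the high P4 cows 4, 5 and 9. The median difference in log2(TPM + 1) between high and low P4 cows was -0.44 in the members, about the SD of 0.44 between the ST samples, and 0.16 in the 8034. Without cow 9 it was -0.96 and without cow 5 it was -0.16. The ranges of the groups overlapped.

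With edgeR 0 members were called higher in ST of high P4 cows, against 0.171% of all transcripts, and 0 lower, against 0.00728% of all. At an unadjusted p under 0.05, 0 were higher, against 4.91%, and 8 lower, against 5.92%. For 0 members did the 3 high P4 samples lie all above (3.45% of all) or all below (0.375% of all) the 9 low P4 samples. DESeq2 called 1 lower (0.95% of all), ENSBTAT00000031540.5, whose values in cows 1 and 8 are given above. In GE edgeR called 0 higher and 0 lower, as it did of all transcripts (0% and 0%), and at an unadjusted p under 0.05 it was 1 higher (3.28% of all) and 2 lower (6.04% of all). DESeq2 called 2 lower in GE (1.74% of all), ENSBTAT00000081425.1 and ENSBTAT00000005903.3, whose low P4 level in GE rested on cow 13.

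ENSBTAT00000027478.5, of 636 bases and named after its values were seen, went the other way by its values. It had 503, 165 and 543 TPM in ST of cows 4, 5 and 9, while low P4 cows had from 0 in cows 11 and 12 to 191 TPM in cow 7, with a median of 45.4. Its GE samples had 17.6, 138 and 130 TPM in the high P4 cows 2, 4 and 9 and from 0 to 22.1 TPM in low P4 cows. The groups overlapped in both cell types, and no test called it.

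The members were shorter than other transcripts, a feature that the rule did not use directly. Their median length was 1535.5 bases, from 195 to 4227, against 1800 in the 8034 and 2016 in all transcripts. There were 15 members under 1000 bases, or 34.1%, against 17.4% of the 8034 and 19.4% of all. TPM is scaled by length, so a short transcript reaches 10 TPM from fewer counts. The 8034 were held to that limit only, while the members also had to meet the ratio to both epithelial means. The cause of the difference in length was not tested. The members with at least 50% of their ST TPM in 1 sample had a median length of 1249 bases, from 195 to 3326. Those present in every ST sample had 1839 bases, from 730 to 4227, and those between had 1362.5 bases, from 474 to 2942.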

How the data were processed

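Paired-end RNA sequencing covered 29 samples of LE, GE and ST from 13 cows. The authors used Salmon 1.1.0 with an index of Ensembl bovine cDNA, and deposited for each transcript the TPM and the estimated count, neither normalized between samples. The submitters' processing notes also name DESeq2 1.26.0. The members and lists were chosen with earlier results of these data known. Members were found on mean TPM of low P4 samples. Identifiers were printed by rule, at most 2 for each direction of a comparison (highest level, largest ratio, highest and lowest CV, largest called change, edges of the rule), and others are marked as chosen after their values were seen.

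Estimated counts were rounded. The 27480 transcripts with 3 or more samples at a count of 10 or more were scaled by TMM and tested with edgeR 4.0.16 in R 4.3.3 on 6 group means of cell type and P4, with Benjamini-Hochberg adjustment over all transcripts at 0.05. P-values measure the spread between samples of a group, which come from different cows. The edgeR test gives no SE. Each SE printed beside its adjusted p is the absolute log2 fold change divided by the square root of the test's F statistic. The main fit had no term for the cow, so samples of 1 cow in different groups counted as independent. Samples of 1 cow come from the same animal, and once group means were removed 21 pairs of them correlated with a median of 0.23, against -0.01 between different cows. Fits with the cow as a block were therefore run as alternatives.

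Alternatives were DESeq2 1.42.0, RLE normalization, no filter, the cow as a block in edgeR and in limma 3.58.1 voom, limma on log2(TPM + 1), the first letter of the titles as a covariate, leaving out each cow, a pseudocount of 0.1 and other limits of the rule. Gene lists, cell type markers and sums per gene had been planned and could not be used, since the transcripts are not paired with genes in the sources used here. Summaries used pandas 2.3.3 and numpy 2.4.6 under Python 3.11.15, and figures used matplotlib 3.10.9. Counts come from amplified cDNA without molecular identifiers and are not counts of independent molecules.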

Additional observations from a re-analysis of the deposited data

Results flagged for a closer look

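Samples far from the rest of their group were looked for in the summed and median level of the members and in 9 named members, over 33 groups of samples. Of these groups 13 were marked. The limit marks about 1 in 20 groups by chance where values are normally distributed, which raw TPM are not, and the groups share samples, so nothing is read from that number. The gap between the extreme sample and its nearest neighbour, as a share of the range of the group, marked each of them.

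In LE of low P4 cows, cow 13 stood apart with a summed level of 1275 TPM over the members, with 139 TPM of ENSBTAT00000083508.1, with 223 TPM of ENSBTAT00000009469.3 and with 39.1 TPM of ENSBTAT00000039787.4. The median member in that sample had 2.24 TPM, within the 0.386 to 2.61 TPM of LE in low P4 cows, so its median did not stand apart. The 383 epithelial transcripts were at 35.3% of their epithelial mean in LE of cow 13. In GE of low P4 cows, cow 6 stood apart with a median member level of 11.5 TPM and with 15.1 TPM of ENSBTAT00000063968.2, and its epithelial transcripts were at 79.9%. The part of other captured cells in these samples was not tested.

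In ST of low P4 cows, cow 10 stood apart with 3843 TPM of ENSBTAT00000083508.1 and 141 TPM of ENSBTAT00000019534.4. Cow 6 stood apart with 256 TPM of ENSBTAT00000084627.1, cow 8 with 178 TPM of ENSBTAT00000069942.1 and cow 7 with 93.6 TPM of ENSBTAT00000032674.3. ENSBTAT00000032674.3 also stood apart in GE of cow 8 with 11.2 TPM and in LE of cow 11 with 0.0738 TPM, where the other LE samples were at or near 0. These members include those picked for a high CV, so outlying samples among them follow from how they were picked.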

How the results depend on the processing

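The number of members was 44, and 278 with 3 times, 11 with 10 times both epithelial means and 93 with median TPM. Leaving out single cows gave from 32 to 80, with 80 without cow 6 and 70 without cow 13. The 6 members called higher in ST than in GE of high P4 cows stand beside 2.07% of all transcripts. DESeq2 called 12 (6.49% of all) and limma on log2(TPM + 1) called 14 (5.06% of all). Under the main fit, with its 2.07% of all transcripts, 61 of the 278 chosen at 3 times both epithelial means were called. Among the 11 chosen at 10 times 1 was. With the cow as a block 0 members were called in edgeR (0.244% of all) and 15 in limma voom (6.32% of all). Leaving out single cows gave from 0 to 6, with 0 without cow 2, 4, 5 or 9. Over all transcripts the calls in either direction were 319, 545, 116 and 55 without these cows, against 1447 in the main fit. The 0 called higher than LE, beside 0.368% of all transcripts, were 10 with DESeq2 (5.09% of all) and 8 with limma on log2(TPM + 1) (2.87% of all). With the cow as a block it was 1 in edgeR (0.386% of all) and 1 in limma voom (1.11% of all). Among the 278 chosen at 3 times 3 were called under the main fit, beside the same 0.368%. With single cows left out from 0 to 1 of the 44 were called, the 1 being without cow 13. Over all transcripts that fit called 684 in either direction, against 482 in the main fit. The 0 called for P4 were 1 lower in ST (0.95% of all) and 2 lower in GE (1.74% of all) with DESeq2. Under the 20 other alternatives 0 were called in both, the block in limma voom included. The median P4 difference in ST lay between -0.96 and -0.16 with single cows left out, and the -0.96 was without cow 9. The median ratio of ST to epithelium in high P4 cows lay between 1.71 and 2.02 under 4 alternatives. Of the named members, ENSBTAT00000063968.2 and ENSBTAT00000039787.4 kept their call in 15 of 20 alternatives each, ENSBTAT00000019534.4 in 8, and ENSBTAT00000044776.3 gained a call in 1. The causes were not tested. With 3 ST, 3 GE and 1 LE sample, the high P4 cows limit every comparison of their cell types, and its p-values also rest on the spread in low P4 cows. Sums per gene were not run because transcripts are not paired with genes here.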
